A study of Homo sapiens with 19 samples.

Results

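In lapatinib-resistant breast cancer cells, oestrogen-related receptor α (ERRα) had peaks within 20 kb of a transcription start of 41 of 45 genes. These are genes of glutathione metabolism and antioxidant defence. Of all protein-coding genes 70.0% had such a peak. In untreated parental cells 35 of the 45 genes and 57.2% of all genes had one. The 45 genes were taken from a list of names, not by a filter on their peaks, but with earlier results of these data known. They are 45 of the 20136 protein-coding genes in the annotation used here. The data are ERRα ChIP-seq peak lists from human HER2-positive breast cancer cell lines, 1 list for each of 8 conditions, made by the authors from 13 ChIP libraries and 6 input libraries. SKBr3 and BT-474 cells were serum-starved for 24 h and then given PBS vehicle (veh), EGF or heregulin (HRG) for 90 min, at a growth factor concentration that the labels give as 100 µM. The parental line pSKBr3 was untreated, and the resistant line LRSKBr3, which was derived from SKBr3 by long exposure to lapatinib, was kept in 2 µM lapatinib. Lapatinib inhibits the EGFR and HER2 kinases, so acquired resistance and the drug itself cannot be told apart in LRSKBr3, which is a single line. The 3 SKBr3 lists, the pSKBr3 list and the LRSKBr3 list each pool 2 ChIP libraries against 1 input, and each BT-474 list rests on 1 ChIP library with a vehicle input shared by all 3.

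Glutathione is a small thiol that cells make from glutamate, cysteine and glycine, use to neutralise peroxides and electrophiles, and regenerate from its oxidised form with NADPH. Superoxide dismutases and catalase remove superoxide and hydrogen peroxide, and peroxiredoxins and thioredoxins form a parallel thiol system. Many of these genes are targets of NRF2 (NFE2L2), which binds antioxidant response elements (AREs) and is held in check by KEAP1, whereas ERRα is an orphan nuclear receptor best known for mitochondrial and energy metabolism genes, and binds the element TCAAGGTCA (the ERRE).

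With 1 list per condition no test between conditions was possible. Each share of the members stands beside the same share over all protein-coding genes, and the ranges in brackets are 95% Wilson intervals that allow for counting error and nothing else. A gene counted as bound where the centre of a peak lay within 20 kb of the start of any of its annotated transcripts. Peaks of 2 lists counted as the same where they shared at least 1 bp, and "LRSKBr3-only" stands for an LRSKBr3 peak that no pSKBr3 peak overlapped. Each score is the peak caller's P value on a negative log scale and depends on sequencing depth, which is unknown here, so that across lists the percentile of a score within its own list is given. The lists differed in length, from 22539 peaks in pSKBr3 to 39777 in LRSKBr3 and 41271 in BT-474 HRG, and the weak peaks of a longer list raise the percentiles of its other peaks, so that percentiles of LRSKBr3 and pSKBr3 are not on 1 scale. As a check of the factor, the ESRRA gene, which encodes ERRα, carried a peak with a score of 3100 in each of the 8 lists. The same score recurs at LRSKBr3 peaks counted for GSTM4, PRDX3, PRDX5 and GPX4, so that it does not rank these peaks among themselves.

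The reference sequence (hg19, plus strand) at 2 of the LRSKBr3-only peaks with the highest scores gives the context of the regions found in LRSKBr3 and not in pSKBr3. Each stretch reaches 100 bases to either side of the peak centre, and capitals mark AAGGTCA, the 3′ part of the ERRE, on either strand. They lie upstream of GSTA4 (chr6:52860314-52860514) and in an intron of TXNRD1 (chr12:104646079-104646279). Such windows were read at 6 of the LRSKBr3-only peaks with the highest scores, at GSTA3 (a pair of peaks), GSTA4, TXNRD1, GSTK1 and SOD2, and that of TXNRD1 alone holds such a word. The GSR peak, which has the fourth highest score (418.47), was not read.
GSTA4: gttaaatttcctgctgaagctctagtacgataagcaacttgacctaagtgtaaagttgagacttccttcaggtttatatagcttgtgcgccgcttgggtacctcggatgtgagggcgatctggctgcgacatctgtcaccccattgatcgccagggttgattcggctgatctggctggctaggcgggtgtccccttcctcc
TXNRD1: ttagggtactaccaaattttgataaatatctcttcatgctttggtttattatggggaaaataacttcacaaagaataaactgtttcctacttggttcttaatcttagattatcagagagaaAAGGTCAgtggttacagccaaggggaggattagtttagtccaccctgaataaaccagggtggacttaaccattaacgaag

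A full ERRE stood within 100 bp of the centre of 3 member peaks, all LRSKBr3-only and of low score. They are shown because they hold the receptor's own full word near the centre, in capitals on whichever strand it was found. Within 250 bp of the centre 5 of the 133 LRSKBr3 member peaks held the full word (3.76%, against 8.89% near all genes), and 11 did over their whole length (8.27% against 13.4%). That of GSTK1 lies in intergenic sequence 3202 bp upstream of the nearest start (chr7:142937884-142938084). That of NFE2L2 lies in an intron reached from a distal start (chr2:178253036-178253236), and that of CAT in a peak centred in an intron (site at chr11:34479319-34479343).
GSTK1: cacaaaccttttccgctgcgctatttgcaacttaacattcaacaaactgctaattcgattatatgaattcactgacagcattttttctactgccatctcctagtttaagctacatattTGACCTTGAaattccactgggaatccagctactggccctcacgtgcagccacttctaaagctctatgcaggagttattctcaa
NFE2L2: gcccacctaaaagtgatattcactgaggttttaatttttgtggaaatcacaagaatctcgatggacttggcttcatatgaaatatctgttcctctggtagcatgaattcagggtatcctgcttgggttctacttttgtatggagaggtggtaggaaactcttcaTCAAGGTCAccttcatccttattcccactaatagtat
CAT: ttagactgTGACCTTGAaacaaagg

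The words of the other factors of this pathway are the ARE core TGACNNNGC and the AP-1 words TGACTCA and TGAGTCA, each searched on both strands. The ARE core and an AP-1 word can overlap. The sites below, each with 8 bases to either side and the words in capitals, come from LRSKBr3-only peaks of members that the comparison with pSKBr3 turns on, and were chosen after their values were seen. Those of GCLC (chr6:53412994-53413018 and chr6:53413039-53413063) are in an upstream region from which minor GCLC transcripts start, and the second is an AP-1 word and an ARE core in 1 stretch. The site of GSTO1 (chr10:106014416-106014440) is near its start. Both sites of TXNRD1 (chr12:104613531-104613553 and chr12:104618633-104618655) are in peaks centred in introns, the second 12 bp upstream of a start inside the gene.
GCLC, ARE: ccgccacgTGACTGCGCgggcccgc
GCLC, AP-1 and ARE: cctccccgTGACTCAGCgctttgtg
GSTO1, ARE: cggagggaTGACTGAGCatttataa
TXNRD1, AP-1, first site: tgtttataTGACTCAtatggcaa
TXNRD1, AP-1, second site: tctgccccTGACTCActggaatc

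ERRα was found at most of these genes in every condition. Of the 45 genes, 41 had a peak in range in LRSKBr3 and 40 in SKBr3 on HRG, against 35 each in SKBr3 veh and pSKBr3. The EGF list of SKBr3 reached 36, and the BT-474 lists 32 on veh, 32 on EGF and 33 on HRG. In the same order of lists (LRSKBr3, SKBr3 HRG, SKBr3 veh, pSKBr3, SKBr3 EGF, BT-474 veh, BT-474 EGF and BT-474 HRG), 70.0%, 66.4%, 54.2%, 57.2%, 56.3%, 53.0%, 42.3% and 55.3% of all protein-coding genes had one. These shares of the members ran from 71.1% (interval 56.6 to 82.3) in BT-474 veh and EGF to 91.1% (79.3 to 96.5) in LRSKBr3, in each list above the share of all genes. Members also have more annotated starts, with a median of 7 against 5 over all genes, and its part in the difference was not tested. A second list of 40 genes of the same pathway, among them the cystine transporter SLC7A11 and the ferritins, gave 35 bound genes in LRSKBr3, 34 in SKBr3 HRG, 32 in pSKBr3 and 28 in SKBr3 veh, and 21 to 26 in the BT-474 lists.

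**Figure D1:**
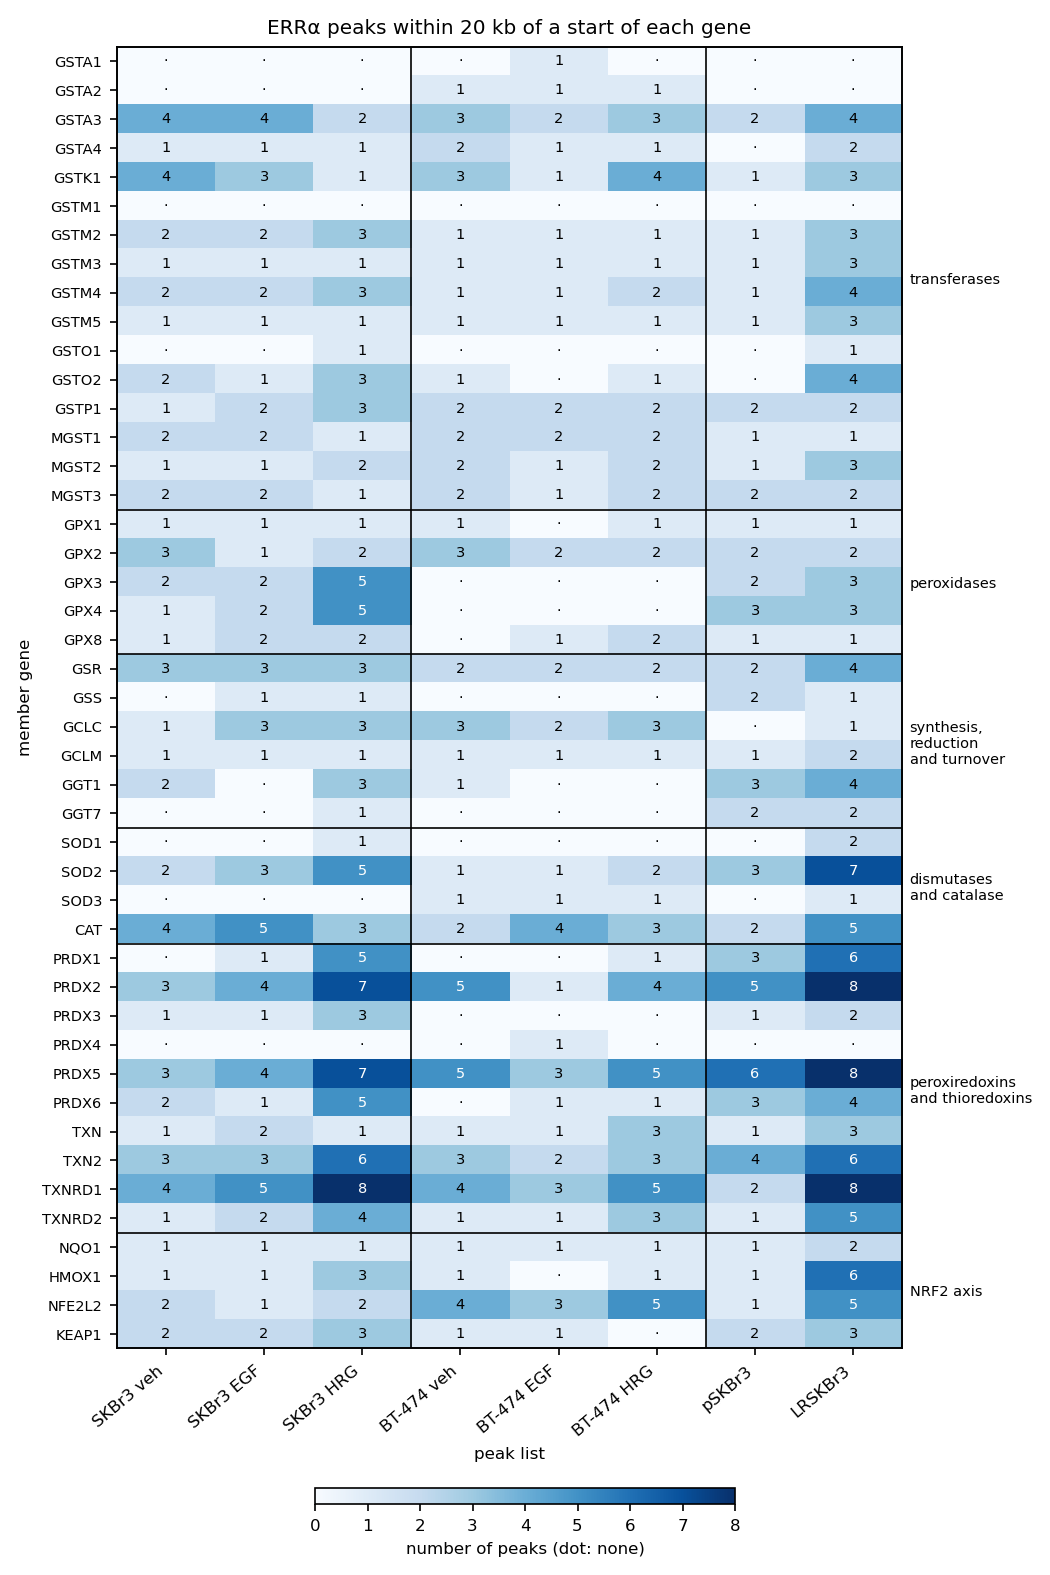
Number of ERRα peaks within 20 kb of a start (colour and digit, dot for none) for each of the 45 genes (rows, grouped by role) in each of the 8 lists (columns). The LRSKBr3 and SKBr3 HRG columns are the fullest, TXNRD1, PRDX2 and PRDX5 reach 8 peaks in LRSKBr3, and GSTM1 has none anywhere.

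A core of 23 genes, 51.1% of the members, was bound in all 8 lists, against 26.8% of all genes. It includes the transferases GSTM4, GSTK1 and GSTP1, glutathione reductase (GSR), the mitochondrial dismutase SOD2, catalase, thioredoxin (TXN), TXNRD1, NQO1 and NFE2L2. The one member with no peak in any list was GSTM1, a gene that many human genomes lack altogether, whereas 15.2% of all genes had none. NQO1, the NAD(P)H quinone reductase that serves as a standard NRF2 target, had a promoter peak in each list, with its centre 5 to 183 bp from a start. Its percentile was 79.6 in SKBr3 veh, 75.9 on EGF and 89.0 on HRG. In BT-474 it was 92.0, 90.6 and 92.1 in the same order, and it was 77.7 in pSKBr3 and 93.6 in LRSKBr3. The promoter peak of GSTM4 had a score of 3100 in both pSKBr3 and LRSKBr3 and stood at percentile 90.5 or above in the others.

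**Figure D2:**
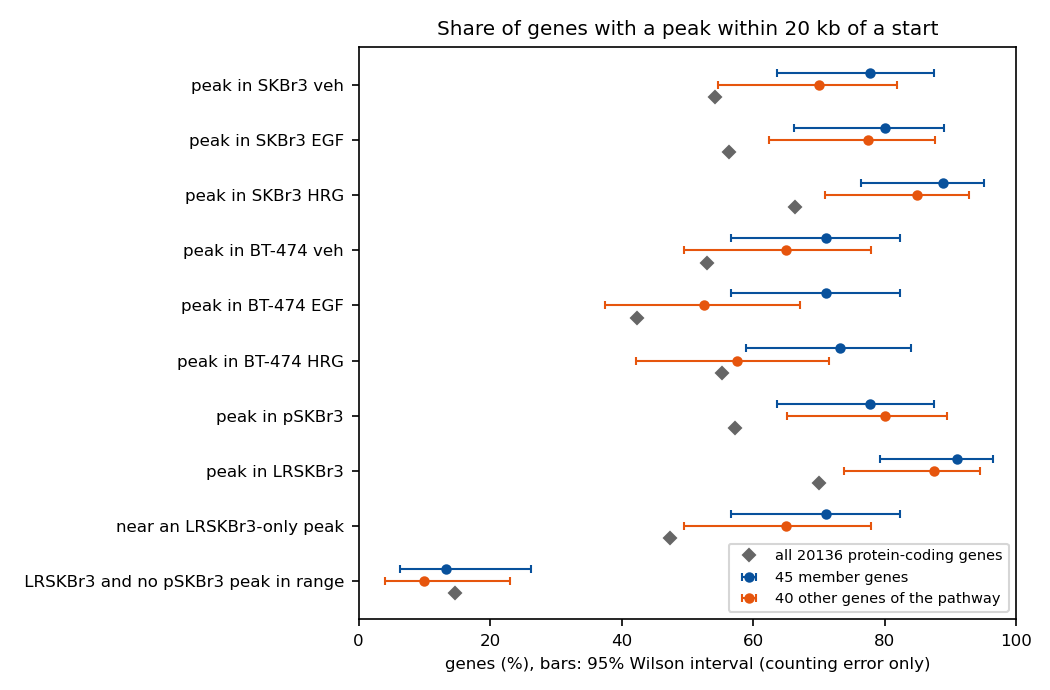
Percent of genes (x axis) with a peak in range in each list, near an LRSKBr3-only peak, or with an LRSKBr3 and no pSKBr3 peak (rows), for the 45 members, 40 other genes of the pathway and all protein-coding genes; bars are 95% Wilson intervals. Members lie above all genes in each list and near the background for genes bound in LRSKBr3 and not in pSKBr3 (13.3% against 14.7%).

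LRSKBr3 cells had 133 distinct peaks at the 45 genes and pSKBr3 cells had 66, where the lists held 24199 and 14140 peaks near all genes. Of the LRSKBr3 peaks, 69 were LRSKBr3-only (51.9%, 43.5 to 60.2) against 48.5% of LRSKBr3 peaks near any protein-coding gene, so that the members' share was close to the background. In the opposite direction 2 of 66 pSKBr3 peaks had no LRSKBr3 counterpart (3.03%, 0.835 to 10.4), against 8.62% near all genes. More LRSKBr3 than pSKBr3 peaks were found at 32 members, equal numbers at 12 and fewer at 1, the glutathione synthetase gene GSS. Over all protein-coding genes 43.9% had more, 51.1% equal numbers and 5.05% fewer. At least 1 LRSKBr3-only peak lay in range of 32 members (71.1%, 56.6 to 82.3), against 47.3% of all genes. Every list was also reduced to its 22539 highest-scoring peaks, the length of the pSKBr3 list. Then 31.8% of the LRSKBr3 member peaks were LRSKBr3-only (26.4% near all genes), and 21 members were near one (46.7%, against 21.0% of all genes). In the opposite direction 6 of 66 pSKBr3 peaks then had no LRSKBr3 counterpart (9.09%, against 21.6% near all genes). Peaks within 1 kb of any annotated start, the promoter peaks, were found at 31 members in LRSKBr3 (68.9%) and 24 in pSKBr3 (53.3%), where 41.8% and 31.4% of all genes had one.

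The LRSKBr3-only member peaks were the weaker class. Their median score percentile in the LRSKBr3 list was 37.3 (range 0.7 to 79.6), whereas that of the 64 shared peaks was 81.5 (11.9 to 98.7). Near all genes the medians of these classes were 31.3 and 75.1. Of the LRSKBr3-only peaks, 47 of 69 were below the middle of the list and 4 were at percentile 75 or above. The shared peaks had a higher percentile in LRSKBr3 than in pSKBr3 in 52 of 64 cases (81.2%), and in 76.6% of cases near all genes. With the LRSKBr3 list reduced to the length of the pSKBr3 list, a setting chosen after seeing the data, these shares were 46.9% (30 of 64) and 38.5%, so that the higher percentiles did not hold at equal length. The widest gaps at the members between the full lists were at GPX3, where a peak 14200 bp upstream stood at percentile 87.8 in LRSKBr3 and 23.1 in pSKBr3 and another, within TNIP1, at 81.0 and 11.6. In the reduced LRSKBr3 list these GPX3 peaks stood at 78.5 and 66.4. About as far apart the opposite way was then a PRDX2 peak (chr19:12892503-12893852), at 19.3 in the reduced LRSKBr3 list and 74.4 in pSKBr3, and a PRDX1 peak at 50.6 in pSKBr3 (chr1:46001269-46002481) fell outside the reduced list.

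**Figure D3:**
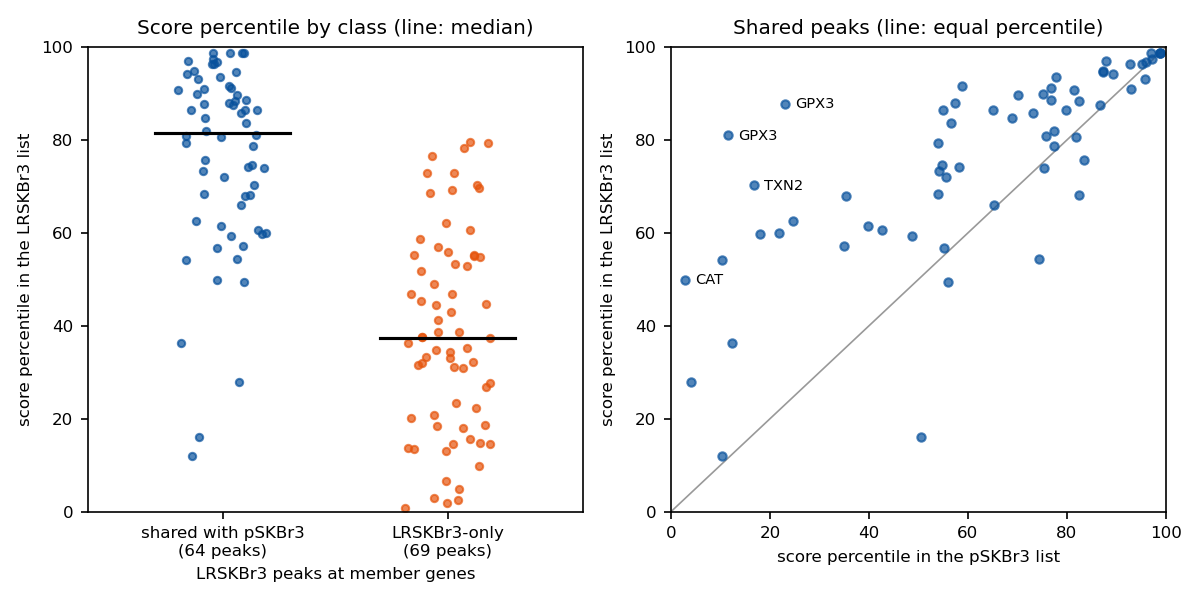
Left, score percentile within the LRSKBr3 list (y axis) of the 64 LRSKBr3 peaks at members that pSKBr3 shared and the 69 that it did not; lines are medians, 81.5 and 37.3. Right, percentile in LRSKBr3 (y axis) against pSKBr3 (x axis) for the 64 shared peaks, of which 52 lie above the line of equal percentile. The lists differ in length (39777 and 22539 peaks), and at equal length 30 of the 64 would lie above it.

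Only 6 members had a peak in range in LRSKBr3 and none in pSKBr3 (13.3%, 6.26 to 26.2), against 14.7% of all genes. They were the transferase genes GSTA4, GSTO1 and GSTO2, the catalytic subunit of glutamate-cysteine ligase (GCLC), and the dismutases SOD1 and SOD3. With lists of equal length the set was GSTA4, GSTO1, GSTO2 and GCLC, without SOD1 and SOD3, or 8.89% of the members (3.51 to 20.7), against 5.51% of all genes. The intervals at both lengths included the share of all genes. Between the full lists none went the opposite way, where the background was 1.84%. For 3 of the 6 (GSTA4, GCLC and GSTO2) starved SKBr3 cells on vehicle also had a peak, so that the lists of the untreated and of the starved cells differed there.

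GSTA4, whose product conjugates 4-hydroxynonenal and other products of lipid peroxidation, was missing from the pSKBr3 list alone. Its promoter peak (chr6:52859463-52861365) had a score of 478.92 in LRSKBr3, percentile 79.3, with its centre 312 bp upstream of a start. In SKBr3 its percentile was 45.8 on veh, 51.1 on EGF and 55.2 on HRG. In BT-474 it was 70.8 on veh, 19.2 on EGF and 71.4 on HRG. The other 7 lists thus all held it, and the nearest pSKBr3 peak had its centre 77190 bp away.

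GCLC carries out the rate-limiting step of glutathione synthesis. Its LRSKBr3 peak (chr6:53412371-53413806, score 217.59, percentile 60.7) centred 85 bp upstream of a minor start and 3190 bp upstream of the canonical one, and covers the ARE sites printed above. The same peak stood at percentile 41.9 in SKBr3 veh, 17.4 on EGF and 46.3 on HRG, and at 6.1 in BT-474 veh and 8.2 in BT-474 EGF. BT-474 HRG and pSKBr3 did not hold it. A second GCLC region, near a start inside the gene, was in both growth factor lists of SKBr3 (percentile 79.7 on EGF and 54.5 on HRG) and in the 3 BT-474 lists, but in neither LRSKBr3 nor SKBr3 veh.

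The copper-zinc dismutase SOD1 had 2 LRSKBr3 peaks next to each other at its start (chr21:33031437-33032383 and chr21:33032390-33033356), with percentiles of 6.5 and 43.0. Both were overlapped by 1 peak of SKBr3 HRG at percentile 19.0, and by no other list. GSTO1, a transferase with thiol reductase activity, likewise had a promoter peak in LRSKBr3 (chr10:106013763-106015019, percentile 44.4) and SKBr3 HRG (59.1) only. The extracellular dismutase SOD3 had a weak promoter peak in LRSKBr3 (chr4:24796535-24797397, score 64.24, percentile 13.1), 229 bp upstream of the start and in no other list. The BT-474 peaks counted for SOD3 were different ones, 6656, 7955 and 9047 bp upstream of a start. GSTO2 had 4 LRSKBr3 peaks in range, 1 of which is the GSTO1 promoter peak and 3 of which lie toward or within ITPRIP.

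**Figure D4:**
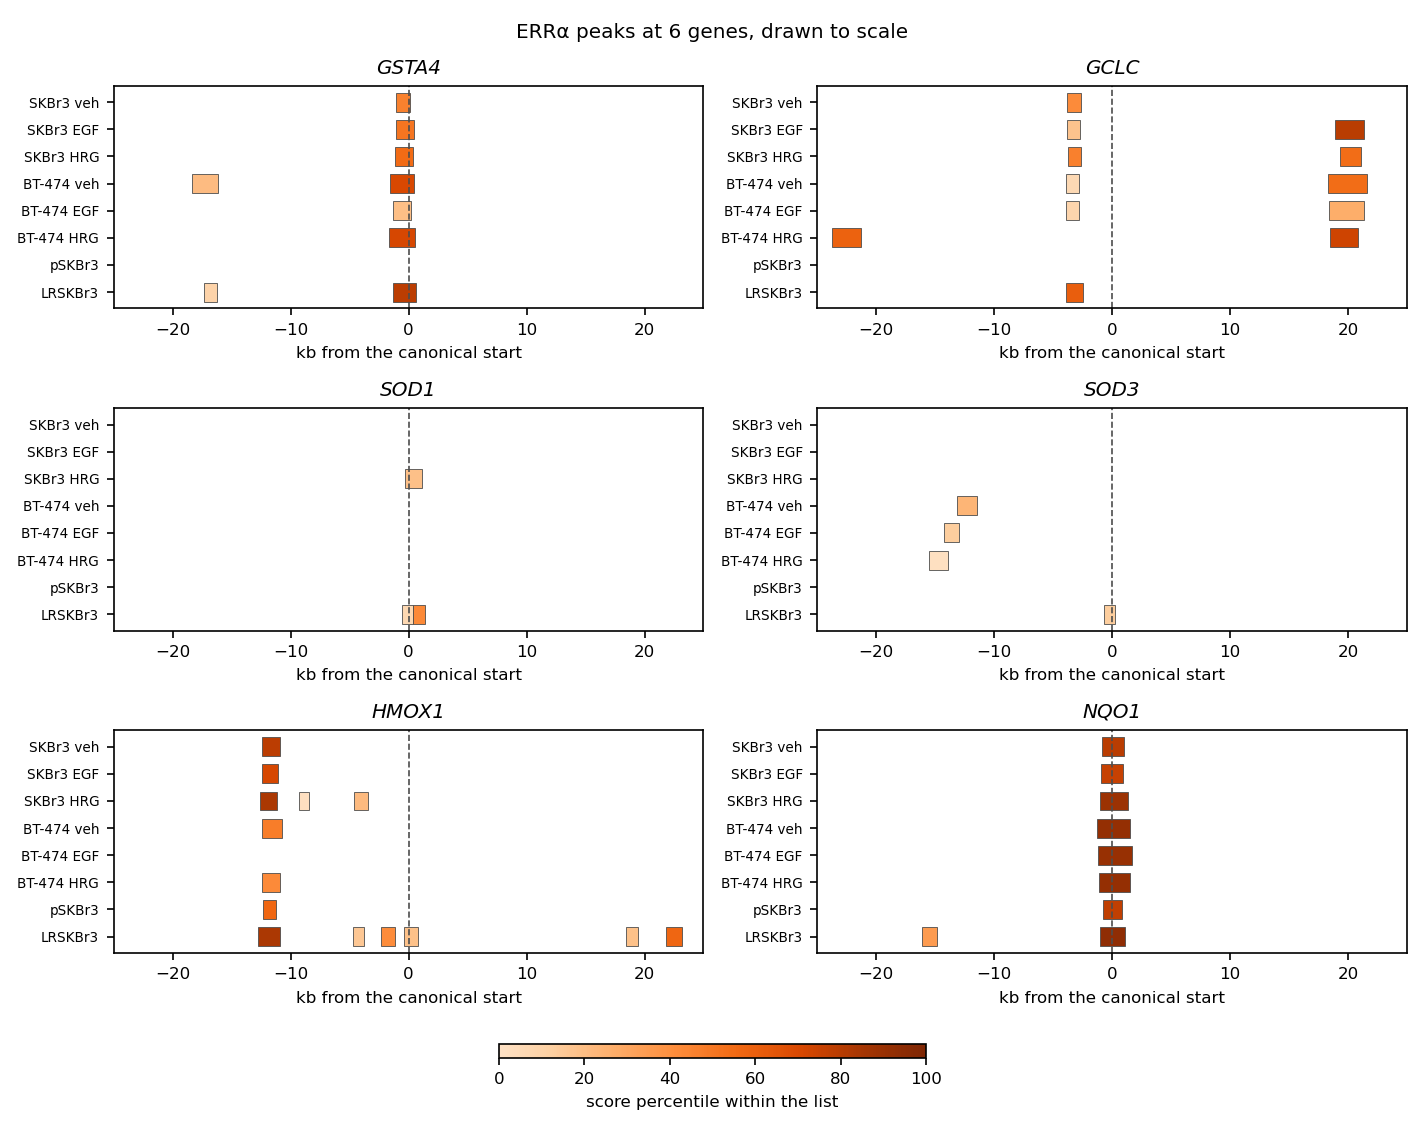
ERRα peaks (boxes, to scale, shaded by score percentile within the list) in the 8 lists (y axis) by distance in kb from the canonical start (x axis, dashed line at 0) of GSTA4, GCLC, SOD1, SOD3, HMOX1 and NQO1. GSTA4 lacks a box in pSKBr3 alone, HMOX1 has 6 boxes in LRSKBr3 against 1 in pSKBr3, and the NQO1 promoter is filled in every list; GCLC peaks beyond the window are not drawn.

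The 16 transferases, which couple glutathione to electrophiles or, as the microsomal MGST enzymes, reduce lipid peroxides, had 28 LRSKBr3 peaks, 17 of them LRSKBr3-only (48.5% of the LRSKBr3 peaks near all genes were), and 11 pSKBr3 peaks. In LRSKBr3 13 of the genes were bound, in pSKBr3 10, in the SKBr3 lists 12 or 13 and in each BT-474 list 13, where 70.0%, 57.2%, 54.2% to 66.4% and 42.3% to 55.3% of all genes were. The highest-scoring LRSKBr3-only peak of all members was in this group, in an intron of GSTA3 (score 487.76, percentile 79.6), and was held by the 3 SKBr3 lists. A second at GSTA3 (348.99) was held by SKBr3 veh and EGF. GSTK1, the mitochondrial and peroxisomal enzyme, had an intronic LRSKBr3-only peak (351.15, percentile 72.9) that SKBr3 veh and EGF and BT-474 veh and HRG held. Its promoter peak was in all 8 lists, at percentiles from 79.6 in SKBr3 EGF to 94.9 in LRSKBr3. The 2 LRSKBr3-only peaks in range of both GSTM5 and GSTM3 (percentiles 55.0 and 55.3) were in no other list, and of those in range of both GSTM2 and GSTM4 one (percentile 37.3) was in SKBr3 EGF and the other (2.6) in SKBr3 veh and HRG. MGST2, a microsomal enzyme, had a promoter peak in all 8 lists (86.5 in LRSKBr3, 79.9 in pSKBr3) and 2 intronic LRSKBr3-only peaks, at percentile 20.2 in no other list and at 46.9 in SKBr3 HRG and BT-474 veh and HRG. GSTP1, MGST1 and MGST3 had no LRSKBr3-only peak. The peak 1596 bp upstream of GSTP1 stood at 90.7 in LRSKBr3, 81.5 in pSKBr3 and 98.3 or above in BT-474. The GSTM genes are neighbours, and 7 of the 133 peaks were in range of 2 or more members, so the counts of GSTM2, GSTM3, GSTM4 and GSTM5 are not independent. GSTA1 and GSTA2 had peaks in BT-474 only, of percentile 14.5 for GSTA1 and of 41.5 to 56.5 for GSTA2.

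The 5 glutathione peroxidases, which reduce hydrogen peroxide and lipid hydroperoxides, were all bound in LRSKBr3, pSKBr3 and the 3 SKBr3 lists, and 2, 2 and 3 of them in BT-474 veh, EGF and HRG. Of all genes 54.2% to 70.0% were bound in the first 5 lists and 53.0%, 42.3% and 55.3% in BT-474. Of the 10 LRSKBr3 peaks of the peroxidases 1 was LRSKBr3-only, against 48.5% of those near all genes, a peak counted for GPX3 that lies in TNIP1. The peak of GPX1 lay within the neighbouring gene USP4, 18349 bp from the GPX1 start in LRSKBr3. It stood at percentile 68.1, 59.1 and 86.8 in SKBr3 veh, EGF and HRG, at 81.8 in pSKBr3 and 80.6 in LRSKBr3, and at 21.6 and 23.1 in BT-474 veh and HRG. BT-474 EGF had no GPX1 peak. The strongest peak of GPX4, the enzyme that protects membranes from lipid peroxidation, stood at percentile 98.7 in LRSKBr3 and 97.0 in pSKBr3 and lay in SBNO2. GPX3 and GPX4 had no peak in any BT-474 list.

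Glutathione synthesis, reduction and turnover were represented by 6 genes, all bound in LRSKBr3 and SKBr3 HRG, 5 in pSKBr3, 4 in SKBr3 veh and EGF, and 3 or 4 in BT-474. The shares over all genes were 70.0% and 66.4%, 57.2%, 54.2% and 56.3%, and 42.3% to 55.3%. GSR, which regenerates reduced glutathione, had a peak at a start in all 8 lists. It stood at percentile 83.1 in SKBr3 veh, 72.2 on EGF and 75.3 on HRG, and at 91.7, 86.1 and 88.9 in BT-474. In pSKBr3 it was 76.7 and in LRSKBr3 88.6. LRSKBr3 had 2 further GSR peaks that pSKBr3 lacked. The stronger of them (418.47, percentile 76.6), 16252 bp upstream in an intron of UBXN8, was held by all 3 SKBr3 lists at percentiles of 4.1 on veh, 46.6 on EGF and 69.1 on HRG. GCLM, the modifier subunit of glutamate-cysteine ligase, had a promoter peak in every list, at percentile 68.1 in LRSKBr3 and 82.4 in pSKBr3, one of the 12 shared peaks at which LRSKBr3 did not stand higher. GSS and the γ-glutamyltransferase gene GGT7 had no peak in BT-474 or in SKBr3 veh. GGT1, which starts the breakdown of extracellular glutathione, had 4 LRSKBr3 peaks, and the LRSKBr3-only one (chr22:24997354-24998242, percentile 51.9) was in SKBr3 HRG and BT-474 veh.

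Among dismutases and catalase all 4 genes were bound in LRSKBr3 and 2, SOD2 and CAT, in pSKBr3, where 70.0% and 57.2% of all genes were. These genes had 15 LRSKBr3 peaks, of which 10 were LRSKBr3-only (48.5% of those near all genes), and 5 pSKBr3 peaks. The SOD2 promoter peak was at percentile 96.4 in LRSKBr3 and 95.2 in pSKBr3. In SKBr3 it was at 84.0 on veh, 73.6 on EGF and 93.5 on HRG, and in BT-474 at 33.6, 24.1 and 17.4. The BT-474 values were below all those of SKBr3, pSKBr3 and LRSKBr3. The 4 LRSKBr3-only peaks counted for SOD2 lie upstream of its promoter, and for 3 of them the nearest start was that of WTAP. The strongest of these (311.62, percentile 70.2) was shared with SKBr3 EGF and HRG and was absent from SKBr3 veh. CAT had 5 LRSKBr3 peaks against 2 in pSKBr3. An LRSKBr3-only peak 11524 bp upstream of CAT (182.66, percentile 55.3) was in all 3 SKBr3 lists, and reached percentile 90.1 on EGF.

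Peroxiredoxins and thioredoxins, with 10 genes, had 50 LRSKBr3 peaks, 25 of them LRSKBr3-only (48.5% of those near all genes), and 26 pSKBr3 peaks, and 9 of the 10 were near an LRSKBr3-only peak, as were 47.3% of all genes. TXNRD1, the cytosolic thioredoxin reductase, had 8 LRSKBr3 peaks and 2 pSKBr3 peaks. Of its 6 LRSKBr3-only peaks, the one 855 bp inside a start (454.89, percentile 78.2) was in the 3 SKBr3 lists, one with an AP-1 word (300.62, percentile 69.3) was in all 6 SKBr3 and BT-474 lists, and 3 were in no other list. TXNRD2, its mitochondrial counterpart, had 5 LRSKBr3 peaks against 1. One of them, at a start inside the gene and far from the canonical one (percentile 38.6), was held by SKBr3 EGF and HRG. PRDX3, the mitochondrial peroxiredoxin, had an LRSKBr3-only promoter peak (percentile 54.8) that SKBr3 HRG alone held, at percentile 19.4. PRDX1 had 6 LRSKBr3 peaks against 3 in pSKBr3, of which 4 were LRSKBr3-only with percentiles of 14.8 to 44.6. The 8 LRSKBr3 peaks counted for PRDX5 include those at ESRRA, its neighbour. The strongest, with scores of 3100 in both lists, lay 13795 bp upstream of PRDX5. PRDX4 was bound in BT-474 EGF alone, at percentile 21.8. Of 8 LRSKBr3 peaks counted for PRDX2, 3 were LRSKBr3-only (percentiles 18.0, 30.9 and 33.1), and most lie in the neighbouring HOOK2. PRDX6 had 1 such peak (percentile 36.4), which SKBr3 HRG held. Thioredoxin (TXN) had a peak 771 bp upstream in all 8 lists, at 88.0 in LRSKBr3 and 57.4 in pSKBr3, and an LRSKBr3-only peak just inside the gene (53.2) in no other list. Mitochondrial thioredoxin (TXN2) had its promoter peak in every list, at 97.4 in LRSKBr3, 97.2 in pSKBr3, 93.4, 86.7 and 95.1 in SKBr3 veh, EGF and HRG, and 76.2, 57.0 and 27.8 in BT-474.

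All 4 genes of the NRF2 axis were bound in LRSKBr3, pSKBr3 and the 3 SKBr3 lists, where 54.2% to 70.0% of all genes were, and each was near an LRSKBr3-only peak, as were 47.3% of all genes. Of their 16 LRSKBr3 peaks, 11 were LRSKBr3-only, against 48.5% of those near all genes. HMOX1, the inducible haem oxygenase, had 6 LRSKBr3 peaks and 1 pSKBr3 peak. The shared one (chr22:35764315-35766164), 11114 bp upstream, stood at percentile 83.6 in LRSKBr3 and 56.6 in pSKBr3, and at 79.1, 71.5 and 83.8 in SKBr3 veh, EGF and HRG. The other 5 had percentiles of 15.6 to 57.0. SKBr3 HRG held 1 of them and 4 were in no other list, including the peak at the HMOX1 promoter (percentile 18.5). The 2 farthest downstream are nearest to MCM5. NFE2L2 had a shared promoter peak in all 8 lists (percentile 67.9 in LRSKBr3 and 35.3 in pSKBr3) and 4 LRSKBr3-only peaks, 3 of them near distal starts far from the main promoter. KEAP1 had a second LRSKBr3 peak at a start inside the gene (percentile 23.4) that SKBr3 HRG also held.

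The LRSKBr3-only peaks were looked up in the lists of the growth factor experiment. SKBr3 HRG held 33 of the 69 (47.8%, 36.5 to 59.4), SKBr3 EGF 16 (23.2%, 14.8 to 34.4) and SKBr3 veh 15 (21.7%, 13.6 to 32.8). The same shares over LRSKBr3-only peaks near all genes were 46.7%, 33.0% and 29.7%. BT-474 veh held 12, EGF 6 and HRG 10, or 17.4%, 8.7% and 14.5%, against 24.7%, 16.1% and 27.1% near all genes. A growth factor list of SKBr3 but not the vehicle list held 25 (36.2%, 25.9 to 48.0), against 32.8% near all genes. Of these, 19 were in HRG only, 2 in EGF only and 4 in both. No other list held 26 (37.7%, 27.2 to 49.5), against 30.1% near all genes. The members' HRG share was thus close to the background, and their BT-474 HRG interval (8.07 to 24.7) did not reach it. The SKBr3 HRG list holds 37195 peaks, more than the veh (32183) and EGF (32567) lists, and with lists of equal length it held 39.3% of 28 LRSKBr3-only peaks, veh 32.1% and EGF 28.6%, against 42.4%, 34.8% and 34.5% near all genes. Among the LRSKBr3-only peaks within 1 kb of a start, SKBr3 HRG held 13 of 17 at members (76.5%) against 45.6% near all genes. These are few peaks, and not each of the 13 has an HRG peak of its own. Both SOD1 peaks were held by 1 HRG peak (percentile 19.0). The GCLM peak and a SOD2 peak had the same HRG percentile (61.3 and 72.2) as the shared peak beside each. Of the 64 shared member peaks SKBr3 HRG held 55 (85.9%) and veh and EGF 48 each, where they held 87.2%, 71.4% and 70.4% of the shared peaks near all genes.

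**Figure D5:**
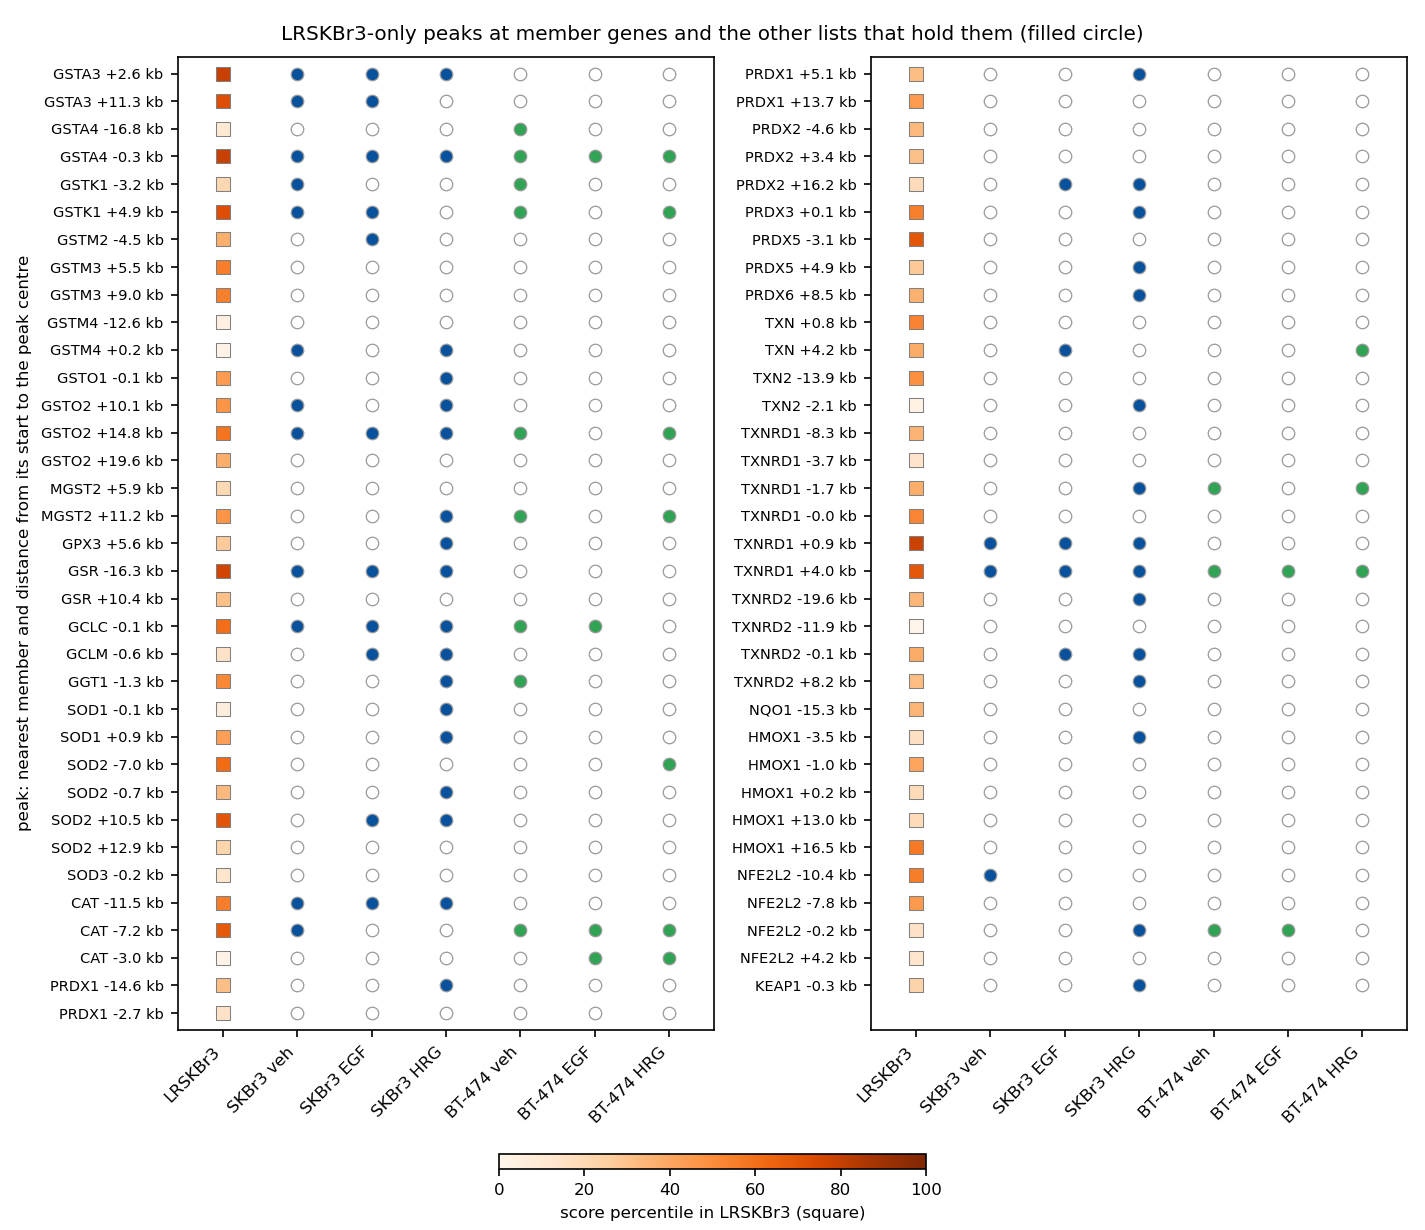
Each of the 69 LRSKBr3-only peaks at members (rows, named by the member and the distance in kb from its start to the peak centre), with its score percentile in LRSKBr3 (square) and the SKBr3 (blue) and BT-474 (green) lists that hold it (filled circles). SKBr3 HRG fills 33 rows, and 26 rows have no filled circle.

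The LRSKBr3-only peaks held by SKBr3 HRG and not by veh included promoter peaks of GSTO1, SOD1 and PRDX3. Among them was also a TXNRD2 peak at a start inside the gene, far from the canonical one. Within 1 kb of these starts veh lacked a peak. The same set included second peaks near a start at KEAP1 (inside the gene), GCLM and NFE2L2. Each was next to a shared peak that veh did hold, with its veh centre 383, 72 and 7 bp from a start. SKBr3 EGF and HRG each had 1 GCLM peak, which overlapped both the second and the shared LRSKBr3 peak. Those held by no other list included SOD3, the HMOX1 promoter, 3 TXNRD1 peaks and the peak 15345 bp upstream of NQO1 in NOB1. The LRSKBr3-only peaks at percentile 75 or above, at GSTA3, GSTA4, TXNRD1 and GSR, were all held by SKBr3 veh. The nearest protein-coding start was that of a member for 52 of the 69 peaks and that of another gene for 17. Within 1 kb of a start of any protein-coding gene lay 31.9% of the LRSKBr3-only member peaks (22.1 to 43.6), against 26.4% near all genes, and 36 of 64 shared ones (56.2%, 44.1 to 67.7), against 5484 of 12470 near all genes.

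Within the growth factor experiment itself, 5 members had a peak in range in SKBr3 on EGF or HRG and none on veh (11.1%, 4.84 to 23.5), against 18.3% of all genes. They were GSTO1, GSS, GGT7, SOD1 and PRDX1, of which GSS and PRDX1 were bound on EGF too. The distinct peaks at members numbered 65 on veh, 71 on EGF and 109 on HRG, and those near all genes 15727, 16612 and 22205. In BT-474 the 5 such genes were GSTA1, GPX8, PRDX1, PRDX4 and PRDX6 (11.1%, 4.84 to 23.5), against 9.68% of all genes, and the peaks numbered 61, 46 and 70 at members and 15168, 11285 and 17779 near all genes. Of these genes, 1, PRDX1, was in both sets, and the overlap of such sets over all genes was not counted. Bound in SKBr3, pSKBr3 or LRSKBr3 but not in BT-474 were 7 members (GSTO1, GPX3, GPX4, GSS, GGT7, SOD1 and PRDX3), 15.6% against 22.1% of all genes, and the reverse held for 3 (GSTA1, GSTA2 and PRDX4), 6.67% against 6.49%.

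Words of known factors were found in few member peaks. An ERRE within 100 bp of the centre was found in 3 of the 133 LRSKBr3 member peaks (2.26%, 0.77 to 6.42), against 5.62% of LRSKBr3 peaks near all genes. They are the GSTK1, NFE2L2 and CAT sites shown above, with percentiles of 20.8, 13.5 and 1.8. AP-1 words were in 5 peaks (3.76%, 1.62 to 8.5) against 5.01%, at TXNRD1, GCLC and PRDX5. ARE cores were in 8 peaks (6.02%, 3.08 to 11.4) against 10.2%, among them peaks of GCLC, GSTO1, MGST2, PRDX5, GGT7, PRDX6 and PRDX1. The direction of the ARE difference turned with the window, with 23.3% of member peaks against 22.4% near all genes within 250 bp of the centre and 60.9% against 52.0% in whole peaks. Summits were not used here, and the centre of a wide peak need not be where the factor sits.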

How the data were processed

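ERRα ChIP-seq of 19 samples (13 ChIP, 6 input) was analysed from the 8 deposited peak lists. Per the labels and methods, the authors aligned reads to hg19 with BWA 0.5.9, used SAMtools 0.1.18, pooled replicate libraries, and then ran the peak caller MACS, whose P cutoff was 1e-05. The deposited score of each peak is the MACS score made by the authors, a P value on a negative log scale. Tag counts were not analysed, so depth is unknown.

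Peak centres were assigned to every protein-coding gene with a transcript start within 20 kb (GENCODE release 44 on GRCh37). The 45 members and the 40 other pathway genes were chosen with earlier results of these data known. No test was possible with 1 list per condition: counts, shares and 95% Wilson intervals were computed with Python 3.11.15, numpy 2.4.6, pandas 2.3.3 and pysam 0.24.0, and checked on simulated data. Words were searched within 100 bp of a centre. By the rule for named genes, every member was accounted for, members near an LRSKBr3-only peak and SOD2, SOD3, GSR and GPX1 were to be given in full, and the others by counts and ranges. In the text the lower-scoring LRSKBr3-only peaks are given by percentile and range. Alternatives were other score thresholds, list lengths, distances, starts, overlaps and word windows. Some sequences at the peaks are not reported here.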

Additional observations from a re-analysis of the deposited data

How the results depend on the processing

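No paired analysis was possible because the authors pooled replicate libraries into 1 list per condition, which also left no replicate to leave out. Of 223 alternative values, 181 stayed within 1.5 times the reported count or inside the interval of the reported share and 42 did not, and the cause was not tested. Within 1 kb of a start, 21, 22 and 26 members were bound in SKBr3 veh, EGF and HRG and 19, 15 and 18 in BT-474 (23.3%, 22.3%, 35.7%, 19.4%, 11.4% and 16.8% of all genes). At that distance 38.6% of LRSKBr3 member peaks were LRSKBr3-only (36.1% near all genes), and 15 members were near one (33.3%, against 15.6% of all genes). Of these 17 peaks SKBr3 HRG held 76.5%, not each by an HRG peak of its own, and BT-474 HRG 5.88% (45.6% and 18.7% near all genes). A growth factor list and not veh of SKBr3 held 52.9% and no other list 23.5% (34.8% and 37.4% near all genes). With lists of equal length, 31.8% were LRSKBr3-only, 21 members (46.7%) were near one, and 21.4% were held on EGF or HRG and not veh (26.4%, 21.0% and 28.3% for all genes). Members bound on EGF or HRG and not veh numbered in SKBr3 3 with equal lengths, 8 within 10 kb, and 9 within 1 kb, with the start of the gene record or with the nearest gene (15.9%, 19.4%, 16.9%, 20.2% and 19.2% of all genes), and in BT-474 2 within 10 kb and 3 within 1 kb or at scores of at least 100 (8.75%, 3.79% and 6.4% of all genes). At scores of at least 100 BT-474 EGF bound 21 members (46.7%, against 30.5% of all genes) and held 4.0% of LRSKBr3-only peaks (14.3% near all genes). At scores of at least 80 it held 3.39% (14.4%). The pSKBr3 peaks without an LRSKBr3 peak were 0% within 1 kb, with the nearest gene or with canonical starts, 15.2% with 50% overlap and 16.7% with centres within 500 bp, against 5.93%, 8.62%, 7.61%, 24.0% and 21.4% near all genes. Canonical starts, and LRSKBr3 scores of at least 100 against the full pSKBr3 list, were chosen after seeing the data, as was the LRSKBr3 list reduced to the length of the pSKBr3 list, with which 46.9% of shared member peaks had the higher percentile in LRSKBr3 (38.5% near all genes). The LRSKBr3 scores of at least 100 gave 39.0% LRSKBr3-only (32.7% near all genes), of which SKBr3 veh held 33.3% and EGF 35.9% (42.1% and 44.6% near all genes). An ERRE was in 8.27% of whole peaks, in 0% at scores of at least 100, and as AAGGTCA in 19.5%, against 13.4%, 5.14% and 21.6% near all genes. AP-1 words were in 9.02% within 250 bp and 25.6% of whole peaks (11.4% and 29.2% near all genes), and ARE cores in 23.3% and 60.9% (22.4% and 52.0%).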

Other observations

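SKBr3 on vehicle and pSKBr3 are both parental cells, starved and untreated, and each list bound 35 of the 45 genes, where 54.2% and 57.2% of all genes were bound. GSTA4, GCLC and GSTO2 were bound in SKBr3 veh and not in pSKBr3, and GSS, GGT7 and PRDX1 in pSKBr3 and not in SKBr3 veh. How many of all genes differed in these ways was not counted, so nothing particular to the members can be read from it.

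The 2 pSKBr3 member peaks without an LRSKBr3 counterpart had percentiles of 54 and 81.7 in pSKBr3. The stronger, counted for GSS, lies in ACSS2 and spans chr20:33501428-33511607. GCLC had a BT-474 HRG peak (percentile 58.9) 19393 bp upstream of a start, just inside the 20 kb limit.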
